A study of Mus musculus with 9 samples.

Results

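Qdpr, 2210013O21Rik, Stoml2, Pno1, Plb1 and Cmtm3 are 6 mouse genes whose mean level was under 1.5 FPKM (sequenced fragments scaled to transcript length and to library size) in wild-type mammary cells and above 10 FPKM in both p53-null and p53/Brca1-null cells. They were selected on those measured means, so the difference from wild type is a description of the choice and is not tested. All 6 were found, among 23951 gene rows, and 132 rows in all met the same limits. RNA had been sequenced from 9 libraries of female mice of mixed genetic background, 3 per genotype. All mice carried the Rosa26-Stop-YFP (R26Y) reporter, in which Cre recombinase switches on a yellow fluorescent protein (YFP). All were given the adenovirus Ad-K8-Cre into the mammary ducts, where the keratin 8 promoter, active in luminal cells, drives Cre, and YFP-positive cells were sorted 1 month later. The WT mice had the reporter alone, the p53-null mice also had Trp53L/L, and the p53/Brca1-null mice had Trp53L/L and Brca1L/L. The sources used here give neither ages nor whether the 3 libraries of a genotype came from separate animals. A p-value therefore measures the spread among libraries only, and part of that spread may be technical.

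The 6 genes have no common pathway. Qdpr encodes dihydropteridine reductase, which regenerates tetrahydrobiopterin, the cofactor of the aromatic amino acid hydroxylases and the nitric oxide synthases. 2210013O21Rik is an older name of Nbdy, the gene of a small protein that binds the mRNA decapping machinery and is tied to P-bodies. Stoml2 encodes a stomatin-like scaffold of the mitochondrial inner membrane, and Pno1 an assembly factor of the small ribosomal subunit. Plb1 encodes phospholipase B1, a membrane-bound enzyme that releases fatty acids from phospholipids, and Cmtm3 a four-span membrane protein of the CMTM family. Stoml2 and Pno1 serve mitochondria and ribosomes, which every nucleated mammary cell contains.

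The promoters are shown because the labels name p53, a transcription factor that binds DNA directly, as deleted in both null genotypes. They are the 150 bases before the start of each gene, 5′ to 3′ on the strand of the gene, from RefSeq on build GRCm38.p6. The deposited values were made on mm9, and no position of that build is used. The stretches are chr5:45450230-45450379 (- strand) for Qdpr, chrX:153723404-153723553 (+ strand) for 2210013O21Rik, chr4:43031385-43031534 (- strand) for Stoml2, chr11:17211590-17211739 (- strand) for Pno1, chr5:32238934-32239083 (+ strand) for Plb1 and chr8:104340444-104340593 (+ strand) for Cmtm3. Plb1 has 2 starts in the table, of which the upstream one is shown. Capitals mark matches, on either strand, to the GC box GGGCGG and the CCAAT box.
Qdpr: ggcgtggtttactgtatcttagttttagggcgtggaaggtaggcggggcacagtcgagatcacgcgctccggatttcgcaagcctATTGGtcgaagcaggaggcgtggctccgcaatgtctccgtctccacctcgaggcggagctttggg
2210013O21Rik: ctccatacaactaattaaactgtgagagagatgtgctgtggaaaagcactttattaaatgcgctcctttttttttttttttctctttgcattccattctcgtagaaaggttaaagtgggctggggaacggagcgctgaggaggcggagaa
Stoml2: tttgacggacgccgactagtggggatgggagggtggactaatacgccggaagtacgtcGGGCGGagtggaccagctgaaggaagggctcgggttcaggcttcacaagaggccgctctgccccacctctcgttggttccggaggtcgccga
Pno1: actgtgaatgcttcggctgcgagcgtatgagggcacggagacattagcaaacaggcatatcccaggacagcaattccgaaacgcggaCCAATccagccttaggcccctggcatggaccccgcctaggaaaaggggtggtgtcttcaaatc
Plb1: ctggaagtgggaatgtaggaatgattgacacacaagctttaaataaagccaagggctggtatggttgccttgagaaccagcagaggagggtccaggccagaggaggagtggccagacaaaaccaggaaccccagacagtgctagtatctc
Cmtm3: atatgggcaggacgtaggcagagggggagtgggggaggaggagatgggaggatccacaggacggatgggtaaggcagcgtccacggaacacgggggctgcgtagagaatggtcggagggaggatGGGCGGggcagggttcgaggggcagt

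A GC box was found before Stoml2 and Cmtm3, against 29.0% of 27025 promoters of the same length. A CCAAT box was found before Qdpr and Pno1, against 25.3%, and TATAAA before none, against 8.08%. The consensus p53 half-site was in 3.996% of all promoters and in none of the 6 windows, which says only that these letters are not in these stretches. GC content was 59.3% before Qdpr, 42% before 2210013O21Rik, 63.3% before Stoml2, 56% before Pno1, 51.3% before Plb1 and 65.3% before Cmtm3, and the median of all promoters was 54%. CpG pairs numbered 14, 5, 14, 8, 0 and 9 in the same order, with a median of 4 over all promoters. The Plb1 window, with no CpG, was thus unlike those of Qdpr and Stoml2. The 6 promoters shared no feature among those counted.

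Features of the libraries that touch these genes come first. WT libraries held 4839, 7320 and 6105 genes at 1 FPKM or more, p53-null libraries 6286, 9146 and 9767, and p53/Brca1-null libraries 7332, 8213 and 7473. All 3 WT libraries thus lay below every p53/Brca1-null library and overlapped with p53-null replicate 1 alone. The depth is not stated. It was estimated from the commonest low product of level and transcript length among 64 to 100 single-transcript genes a library. Only a preset range of products was searched, and 14 to 46 genes lay at the commonest one. The fragment numbers given for each gene are therefore approximate. The levels of WT replicate 1 were tied to those of WT replicate 2. Of 3022 genes at 2 to 20 FPKM in WT replicate 2 and under 2 FPKM in WT replicate 1, the level in replicate 1 was 8.31% of that in replicate 2 at the median, with quartiles of 7.07% and 9.83%, and 5 genes were at 0. Of all 72 ordered pairs of libraries this one had the most genes at a common ratio, 53.1% of those compared, and the next pair had 34.9%. The cause was not tested, so WT replicates 1 and 2 may not be independent. The count of rows near zero only in WT and the list medians are given without WT replicate 1 too. Shares by level, rows at 0 in all WT libraries and rows within the limits in every library are given with all libraries only. Luminal transcripts were present, with the keratin gene Krt8 between 1136 and 4385 FPKM and 19 luminal markers summed at 3859 to 15846. The luminal markers were mixed, as Kit was at 0 in all WT libraries and Elf5 and Esr1 had WT means of 0.242 and 0.0605 FPKM. In p53-null replicate 1 the summed level of 8 adipocyte markers, 5301 FPKM, exceeded the luminal sum of 3859. Immune markers were present too, as the MHC class II chaperone gene Cd74 lay between 859 and 4427 FPKM. Trp53 was listed between 0.858 and 55.7 FPKM with no order by genotype, and Brca1 was listed at 0 in all libraries but p53-null replicate 1, at 0.0056 FPKM, WT included. Neither gene checks the genotypes, so the labels alone name the groups.

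**Figure D1:**
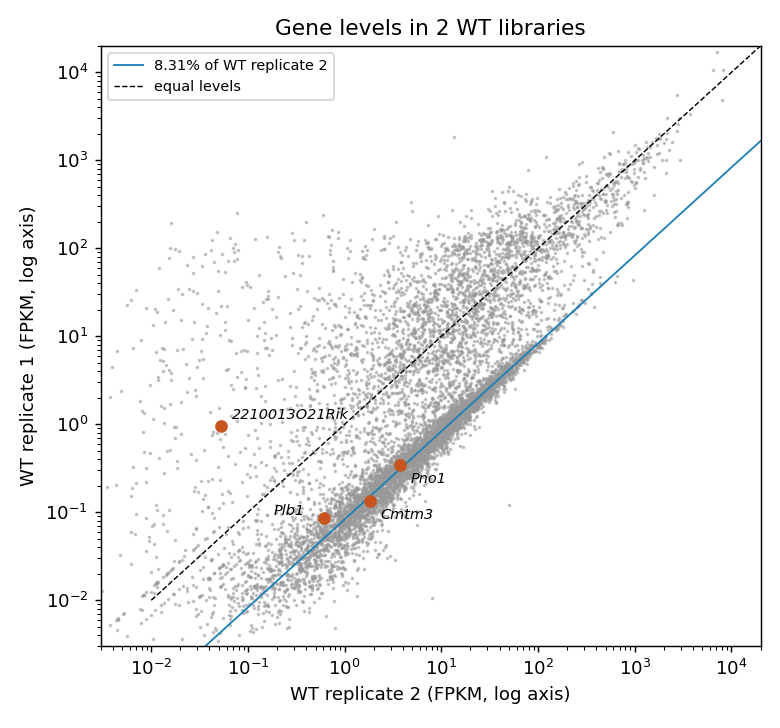
Level of each gene above 0 in both libraries, WT replicate 2 on the x axis and WT replicate 1 on the y axis (FPKM, log axes), with the line at 8.31% and the line of equal levels. Pno1 (9.33%) and Cmtm3 (7.36%) lie near the 8.31% line among other genes, Plb1 lies above it at 13.8%, and 2210013O21Rik lies above the line of equal levels. Plb1 and Cmtm3 were under 2 FPKM in WT replicate 2, below the range of the genes that gave the 8.31%.

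Qdpr was almost without signal in WT. It was listed at 0 FPKM in WT replicates 1 and 3 and stood at 0.0289 in replicate 2. Values of 39.6, 26.6 and 23.6 were found in p53-null, against 44.5, 14.3 and 46.3 in p53/Brca1-null. The highest WT value lay far below the lowest of the other 6 libraries. With the longest coding transcript of the annotation and that rough depth, the 0.0289 FPKM corresponds to about 1.08 fragments, and the lowest value outside WT to about 541.

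2210013O21Rik stood at 0.948, 0.0528 and 0 FPKM in WT, while p53-null libraries held 51.5, 22.1 and 32.2 and p53/Brca1-null libraries 30.1, 36.8 and 23.5. The 6 libraries outside WT differed by at most 2.33 times and did not overlap with WT. WT replicate 1 was the highest WT library for this gene, at about 24.7 fragments against about 1.92 in replicate 2. Its level in replicate 1 thus exceeded that in replicate 2.

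Stoml2 stood at 0, 0.0511 and 0.0552 FPKM in WT, about 2.59 and 2.65 fragments in replicates 2 and 3. The p53-null libraries held 30.2, 20.1 and 19.6 FPKM, and the p53/Brca1-null libraries 18.7, 42.0 and 24.8. Those 6 libraries lay within 2.25 times of each other, the narrowest spread of the 6 genes. Stoml2 shares 1050 aligned bases at 95.2% identity with the processed pseudogene Gm5626, which has no row in the table, so fragments that fit both cannot be placed with certainty.

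Pno1 was not at 0 in any library. It stood at 0.349, 3.74 and 0.136 FPKM in WT. The p53-null values were 66.3, 29.3 and 26.5, and the p53/Brca1-null values 57.3, 45.9 and 53.2. WT replicate 2 held about 156 fragments, so the gene was measured there, and the lowest library outside WT was 7.07 times higher. The value in WT replicate 1 was 9.33% of that in replicate 2, near the 8.31% of other genes.

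Plb1 stood at 0.0851, 0.617 and 0 FPKM in WT. Values of 19.5, 6.49 and 27.6 were found in p53-null, against 66.6, 46.9 and 58.0 in p53/Brca1-null. The 3 genotypes did not overlap, and the order was WT, p53-null, p53/Brca1-null. WT replicate 2 held about 79.4 fragments, and WT replicate 1 stood at 13.8% of its level.

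Cmtm3 stood at 0.134, 1.82 and 0 FPKM in WT, while p53-null libraries held 12.8, 2.996 and 19.1 and p53/Brca1-null libraries 44.6, 81.5 and 59.6. The genotypes were again in that order without overlap, but WT replicate 2 (about 79.6 fragments) and p53-null replicate 2 (about 115) lay close to each other. The lowest p53-null level of Cmtm3 was 1.64 times the highest WT level. WT replicate 1 was at 7.36% of replicate 2.

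**Figure D2:**
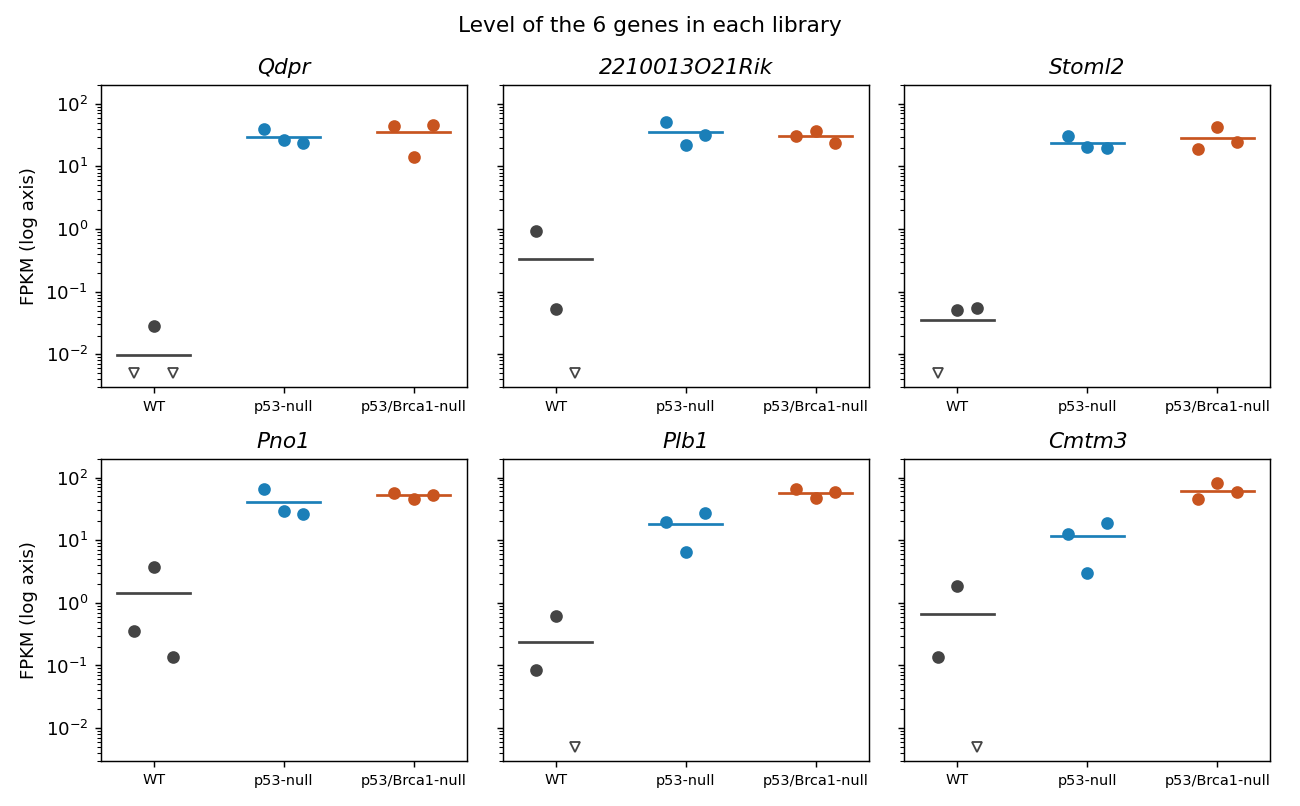
Level of each gene in the 9 libraries (FPKM, log axis), with a point per library in the order of replicates 1 to 3, open triangles for libraries listed at 0, drawn below the smallest value above 0, and lines at the genotype means. Qdpr, 2210013O21Rik, Stoml2 and Pno1 have like levels in both null genotypes, while all p53/Brca1-null points of Plb1 and Cmtm3 lie above their p53-null points.

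Ordered by their p53-null means, the genes were Pno1 at 40.7 ± 22.3 FPKM (SD, n = 3), 2210013O21Rik at 35.3 ± 14.9, Qdpr at 29.9 ± 8.50, Stoml2 at 23.3 ± 5.97, Plb1 at 17.9 ± 10.6 and Cmtm3 at 11.6 ± 8.10. Neighbours in this order differed by less than the larger of their SDs. In p53/Brca1-null the order was Cmtm3 at 61.9 ± 18.5 FPKM (SD, n = 3), Plb1 at 57.2 ± 9.87, Pno1 at 52.1 ± 5.77, Qdpr at 35.0 ± 18.0, 2210013O21Rik at 30.1 ± 6.65 and Stoml2 at 28.5 ± 12.1. The 2 lowest genes in p53-null were thus the 2 highest in p53/Brca1-null. WT means were 1.41 ± 2.02 FPKM for Pno1 and 0.653 ± 1.02 for Cmtm3, the 2 highest, and 0.00963 ± 0.0167 for Qdpr, the lowest.

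How the 6 genes were taken from the 132 rows within the limits is not stated, so the choice may have favoured either null genotype. The limits themselves put a floor under both null means but do not use the difference between them. That difference, p53/Brca1-null against p53-null, asks what Brca1 loss added to p53 loss. Plb1 and Cmtm3 were higher in all 3 p53/Brca1-null libraries than in any p53-null library, 2 of the 6 genes, where 4.87% of the 9503 genes tested had that order and 8.01% the opposite one. Neither passed the test across all genes. Cmtm3 differed by 2.56 ± 0.98 (SE) on the log2(FPKM + 1) scale, with a limma adjusted p of 0.822 and an unadjusted p of 0.0180, and its means stood in a ratio of 5.33. Plb1 differed by 1.81 ± 0.92 (limma adjusted p = 0.999, unadjusted p = 0.0665), with a ratio of means of 3.20. The others differed by less than 1 SE: Pno1 by 0.47 ± 0.90, Stoml2 by 0.23 ± 0.90, Qdpr by 0.09 ± 0.92 and 2210013O21Rik by -0.16 ± 0.90, each with a limma adjusted p of 0.999. In this comparison limma called 0 of 9503 genes (0%), with 450 at an unadjusted p under 0.05, and the median of all genes was -0.16. For both Plb1 and Cmtm3, p53-null replicate 2 was the lowest library outside WT. Without it the differences were 1.25 for Plb1 and 1.88 for Cmtm3.

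**Figure D3:**
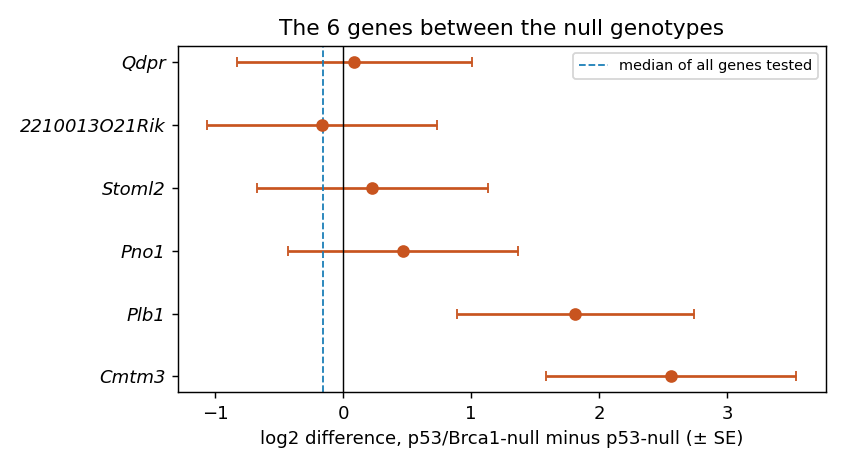
Difference between p53/Brca1-null and p53-null for each gene on the log2(FPKM + 1) scale, with bars of 1 SE from limma and a dashed line at the median of all genes tested, -0.16. Bars of Qdpr, 2210013O21Rik, Stoml2 and Pno1 cross 0, and those of Plb1 and Cmtm3 do not, although neither gene passed after adjustment.

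Immune cell markers were also higher in p53/Brca1-null than in p53-null for the most part. The summed level of 19 markers, which include the MHC class II genes and the C1q genes, ran from 2891 to 8316 FPKM in WT, from 3136 to 6851 in p53-null and from 9393 to 15265 in p53/Brca1-null, where all 3 libraries lay above the rest. No more than 1 of the 19 markers was at 0 in any library, and Cd74, Lyz2, H2-Ab1 and H2-Aa made up 70.1% to 79.6% of the sum. Of the 9503 genes tested, 4.87% had all p53/Brca1-null libraries above all p53-null libraries and 8.01% had them below. Among the 19 markers, which are not independent of each other, 10 were above and 0 below. The mean was higher for 17 and lower for 2, Ptprc, which encodes the pan-leukocyte protein CD45 (6.58 ± 6.21 FPKM for p53-null, 2.80 ± 2.56 for p53/Brca1-null, SD, n = 3), and the T cell receptor component gene Cd3e. Of the 18 markers tested, limma called 0 between the null genotypes. Only 1 of the 19 markers met the limits of the 6 genes, the leukocyte actin-binding protein gene Coro1a, at 3.29 FPKM in p53-null replicate 1. Among the others, Lyz2 stood between 592 and 3223 FPKM in WT and Cd79a at 0. The part of immune cells in the levels of Plb1 and Cmtm3 was not tested. In these bulk samples, fewer cells of a type and less RNA per cell cannot be told apart.

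Over the 9 libraries, which also share the WT step that chose them, the 6 genes correlated with each other with Pearson's r of log2(FPKM + 1) from 0.813, for Qdpr and Cmtm3, to 0.983, for 2210013O21Rik and Stoml2. Likeness to genes outside the 6 was taken over the same 9 libraries, so it rests on that WT step too. Of the outside genes named next, all but Fem1c and Tmem106a met the limits of the 6 genes themselves. Outside the 6, the gene most like Stoml2 was Mrpl2 (r = 0.998), of the mitochondrial ribosome, at 0.0588, 0 and 0.0460 FPKM in WT. The p53-null values were 21.01, 19.1 and 16.1, and the p53/Brca1-null values 15.9, 28.03 and 17.4. Sh3bp5 came next. The genes most like 2210013O21Rik were Mrps22 and Mrpl42, also of the mitochondrial ribosome, both listed at 0 in all 3 WT libraries. Qdpr was most like Il4ra, the interleukin-4 receptor chain, and Fem1c. Pno1 was most like Prdx3, a mitochondrial peroxiredoxin at 0.421, 3.77 and 0 FPKM in WT, and Nagk. Plb1 was most like Cks1b, which serves cyclin-dependent kinases, at 0.0861, 1.59 and 0 FPKM in WT. Values of 19.6, 12.3 and 18.7 were found in p53-null, against 55.9, 43.1 and 44.3 in p53/Brca1-null. Tmem106a came next to Cks1b. Cmtm3 was most like Plb1 (r = 0.971) and Cd209f (r = 0.967), a lectin gene at 0.131, 2.98 and 0, then 20.2, 23.9 and 39.1, then 82.5, 360 and 151 FPKM.

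Rows near zero were far more common in WT than in either null genotype. With a mean under 1.5 FPKM in 1 genotype and above 10 FPKM in both others, 132 rows (0.551%) were low only in WT, 18 (0.0752%) only in p53/Brca1-null and 2 (0.00835%) only in p53-null. Of the 132, 31 were listed at 0 in all 3 WT libraries, and none of the 6 genes was among these. Without WT replicate 1 the WT count was 141, without replicate 2 it was 285 and without replicate 3 it was 240. Pno1 missed the WT limit without replicate 1 and again without replicate 3, since replicate 2 then weighs more in the mean. Without p53-null replicate 3, 5 of the 6 genes met the limits, as Cmtm3 then missed the p53-null limit. With the limits held in every library the WT count was 12, with Qdpr, 2210013O21Rik and Stoml2 among them. Pno1, Plb1 and Cmtm3 missed, Pno1 through 3.74 FPKM in WT replicate 2, Plb1 through 6.49 FPKM in p53-null replicate 2 and Cmtm3 through both of those libraries. Just inside the WT limit lay Tmem65, Golga7 and Arid5a, with WT means of 1.48, 1.48 and 1.44 FPKM, and just outside it Mapk3, Tollip and Papd4 at 1.51, 1.55 and 1.57.

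The share of genes near zero fell with the level in the other genotypes. Between 10 and 20 FPKM there, 102 of 1114 genes (9.16%) were near zero in WT. Between 20 and 50 FPKM, the range of Qdpr, 2210013O21Rik, Stoml2 and Pno1, it was 24 of 1015 (2.36%), and between 50 and 100 FPKM 6 of 413 (1.45%). None of 509 genes above 100 FPKM was near zero in WT. By the lower of the null means Pno1 ranked 7 among the 132, 2210013O21Rik 11, Qdpr 12, Stoml2 22, Plb1 42 and Cmtm3 102. Of the 6 rows that ranked highest, 5 were microRNA or snoRNA rows (Mir7001, Mir1906-1, Snora68, Mir678 and Snora64), each listed at 0 in at least 2 of the 6 null libraries, and the other was Mrpl42.

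**Figure D4:**
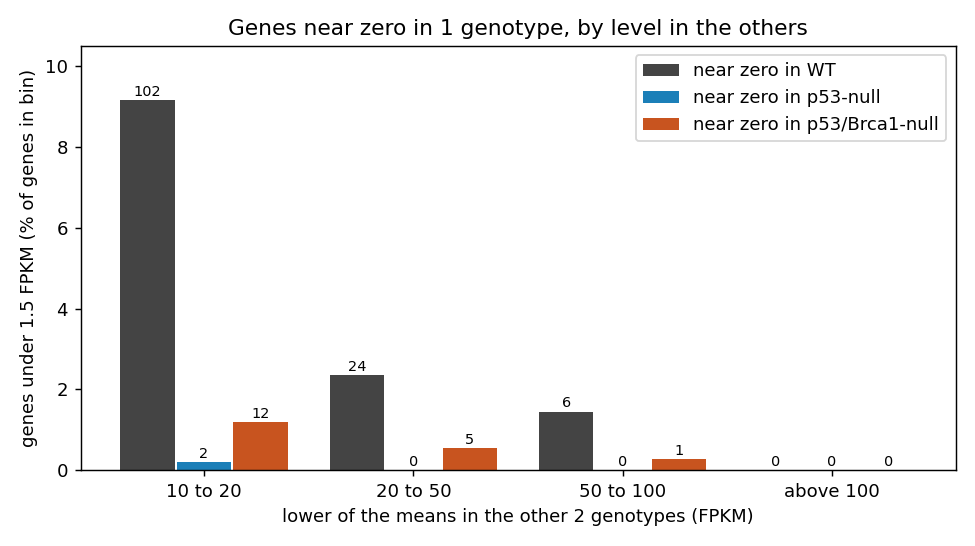
Share of genes with a mean under 1.5 FPKM in 1 genotype, by the lower of the means in the other 2 genotypes (FPKM, x axis), with the number of genes on each bar. Bars for WT exceed those for either null genotype up to 100 FPKM, and no gene above 100 FPKM was near zero in any genotype.

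Low values also occurred in single libraries. Among genes above 10 FPKM in all other 8 libraries, 50 of 1481 (3.38%) were under 1.5 FPKM in WT replicate 1, 5 of 1096 in WT replicate 2, 19 of 1142 in WT replicate 3 and 10 of 1104 in p53-null replicate 1. The other libraries had 0 to 3 such genes. Few were listed at exactly 0: 8 in WT replicate 3 and at most 2 elsewhere. Of 79 genes that every cell uses, such as proteasome and chaperonin subunits, 0 to 4 a library were under 1.5 FPKM, 7 genes in all. Psmd13, of the proteasome, was listed at 0.419, 8.17 and 0.109 FPKM in WT libraries, but between 19.3 and 45.6 in the 6 other libraries. Prpf8 and Tbp, of the spliceosome and of basal transcription, were listed at 0 in WT replicate 3, but Prpf8 was also at 0.00495 FPKM in p53-null replicate 1 and both had p53/Brca1-null values under 1.5 FPKM. Polr2a, of RNA polymerase II, was under 1.5 FPKM in 4 null libraries and in no WT library, and Polr2c at 0.658 FPKM in p53/Brca1-null replicate 3. Such lows were found in all 3 genotypes.

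Marks of an uncertain estimate were looked for in the 6 genes. The table held 526 values above 0 but under 0.0001 FPKM, in 156 genes, far under 1 fragment. Mir678 was such a row, at 2.01e-22 FPKM in WT replicate 2. None of the 54 values of the 6 genes was, and the smallest above 0 was 0.0289 FPKM. Qdpr, 2210013O21Rik, Stoml2 and Plb1 overlap antisense, lincRNA or pseudogene models with no row in the table, and Pno1 overlaps Wdr92 on the opposite strand. No source states that the counting used strand, and without it reads of overlapping genes cannot be told apart. Wdr92 stood at no more than 1.80 FPKM in any library. Aside from Gm5626, stretches of at least 150 bases shared with other genes at 85% identity or more were those with the overlapping models of Stoml2, Qdpr and 2210013O21Rik. Whether a 0 of these genes is a failed estimate was not tested.

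Of the 12 annotated neighbours in the table, none met the limits of the 6 genes. Next to Plb1, Ppp1cb, which encodes a phosphatase, stood at 89.1, 18.4 and 33.3 FPKM in WT and between 27.4 and 46.5 in the other 6 libraries, and Fosl2 between 1.17 and 11.3 over all 9. Next to Stoml2, Fam214b stood at 1.17, 12.2 and 11.5 FPKM in WT and between 2.09 and 17.2 elsewhere, while Pigo was at 0 in WT and at most 3.72 FPKM elsewhere. Cmtm4, beside Cmtm3 and of the same family, was at 0 in WT and at most 1.98 FPKM elsewhere, and Cmtm2b was at 0 throughout. Next to Pno1, C1d stood at 0.0172, 0.661 and 14.8 FPKM in WT and between 0.0785 and 15.4 elsewhere. Clrn2 and Ldb2 beside Qdpr, and Kctd12b and Spin2c beside 2210013O21Rik, were under 5 FPKM in every library.

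Genes that work with the 6 were taken from 5 lists, and those named have the highest mean levels, so their presence in WT follows from that choice. With all libraries, limma called no gene of the 5 lists in any comparison, where 0.0105% of 9503 genes were called for p53-null against WT and 0.253% for p53/Brca1-null against WT. Those comparisons share the WT libraries. Without WT replicate 3, 1 gene was called for p53/Brca1-null against WT in each list but the tetrahydrobiopterin one. In that setting limma called 74 of all 9503 genes for this comparison. Of 7 tested tetrahydrobiopterin genes besides Qdpr, 0 passed, with a median log2 change from WT of -0.61 for p53-null and 0.28 for p53/Brca1-null, where all genes had medians of 0.58 and 0.41. The direction for p53-null rested on single libraries, with medians of 0.74 without WT replicate 1 and 0.17 without p53-null replicate 1. For p53/Brca1-null the median was 0.20 without WT replicate 1, and all genes then had medians of 0.33 and 0.19. Gch1, the first enzyme of the synthesis, stood at 57.3, 9.26 and 81.7 FPKM in WT, while p53-null libraries held 23.5, 17.1 and 30.4 and p53/Brca1-null libraries 17.2, 36.2 and 54.7. The 3 genotypes overlapped for Gch1. Pcbd2, which helps recycle the cofactor, stood at 26.5, 61.7 and 31.8 FPKM in WT. Tph1, of the same list, was at 11.8, 139 and 55.1 FPKM in WT and 0.670 to 18.5 in the null libraries.

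Of 16 tested genes of the stomatin and prohibitin family and inner membrane proteases besides Stoml2, 0 passed, with medians of 1.21 and 0.87 in the same order, and 0.85 and 0.19 without WT replicate 1. Phb2, a prohibitin that binds Stoml2, stood at 48.2, 131 and 45.3 FPKM in WT and between 46.4 and 74.4 in the other libraries. Phb stood at 2.30, 25.5 and 49.8 in WT. Spg7, of the same list, was at 183, 7.33 and 5.87 FPKM in WT and 0.370 to 19.6 elsewhere. Flot1, a flotillin gene, was the 1 list member that met the limits of the 6 genes, at 0.127, 0.692 and 0.199 FPKM in WT and 0 to 37.7 elsewhere. Of 30 small subunit assembly genes besides Pno1, 0 passed, with medians of 0.70 and 0.54, and 0.08 and -0.01 without WT replicate 1. Utp11l, of the small subunit processome, stood at 0.444, 7.26 and 59.8. Nop58, a core protein of the snoRNA particles, stood at 359, 230 and 95.4 FPKM in WT and between 93.2 and 174 in the null libraries, and Nop56 at 5.65, 43.5 and 64.5.

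Of 21 phospholipase genes besides Plb1, 0 passed, with medians of 0.96 and 0.64, and 0.87 and 0.39 without WT replicate 1. Abhd12 was at 119, 29.4 and 15.7 FPKM in WT and 0.0613 to 47.2 in the null libraries. Pnpla2, the adipose triglyceride lipase gene, was at 62.2, 30.3 and 27.6 FPKM in WT. Pla2g7, a secreted phospholipase gene of macrophages, stood at 0.249, 2.81 and 13.7 in WT against 20.1 to 75.5 in the null libraries. Of 9 CMTM and MAL family genes besides Cmtm3, 0 passed, with medians of 0.63 and 0.80, and 0.35 and 0.53 without WT replicate 1. Plp2 stood at 1.64, 20.9 and 52.1 FPKM in WT. Cmtm8 was at 105, 57.6 and 4.71 FPKM in WT and 0.0420 to 68.1 in the null libraries. The chemokine-like factor gene Cklf was at 0, 0.0942 and 35.0 in WT and 7.12 to 139 in the null libraries. Against p53-null, the p53/Brca1-null medians of the 5 lists ran from -0.37, for phospholipases, to 0.48, for tetrahydrobiopterin genes, with -0.16 for all genes. Leaving out single libraries turned the sign for the CMTM and MAL family (-0.89 to 0.44) and the prohibitin list (-0.31 to 0.05).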

How the data were processed

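The authors deposited FPKM, with 1 column for each library and 24043 rows. The unit is inferred from the values, as the header names none. The build was mm9 per the submitters' processing notes. The sources used here name no aligner, quantifier or annotation. The 92 spike-in rows (1 above 0) were left out. The 6 genes and the gene lists were chosen with earlier results of these data known. Tests used limma 3.58.1 in R 4.3.3, with trend and robust moderation, on log2(FPKM + 1), which understates changes of low genes. A gene entered if 3 or more libraries reached 1 FPKM, which 9503 did, the 6 genes among them, with 1 coefficient per genotype, 6 residual degrees of freedom and Benjamini-Hochberg adjustment, called at 0.05. The fit was tested on simulated data. Approximate fragments are FPKM times the longest coding transcript (GENCODE, GRCm38), divided by the commonest low product of level and length in that library. Shared transcript stretches were found with blastn 2.17.0. Named genes were the 6, their annotated neighbours, the 2 genes most correlated with each, rows nearest the WT limit or highest within the limits, and up to 3 genes a list with the highest mean or within the limits. Genes outside this rule (Psmd13, Prpf8, Tbp, Polr2a, Polr2c, Krt8, Kit, Elf5, Esr1, Trp53, Brca1 and the immune markers) were chosen after their values were seen or as checks of the samples.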

Additional observations from a re-analysis of the deposited data

How the results depend on the processing

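For p53/Brca1-null against p53-null, the adjusted p over the 16 other settings ran from 0.370 to 1 for Cmtm3 and from 0.498 to 1 for Plb1. Both, and Pno1, kept their sign in all 16. Signs of the small differences turned when single libraries were left out, from -0.20 to 0.62 for Qdpr (with -0.06 and -0.17 between), from -0.45 to 0.15 for 2210013O21Rik (also 0.00015) and from -0.082 to 0.48 for Stoml2. No sign of pairing by replicate number was seen. Deviations of same-numbered libraries correlated from -0.083 to 0.056, and those of other libraries from -0.064 to 0.078. With 3 libraries per genotype, this check cannot show that pairing was absent. With the replicate block 14 genes passed for p53/Brca1-null against WT in place of 24, and 1 and 0 in the other comparisons, as without it. With only the 6 libraries compared, 1 gene passed for p53/Brca1-null against p53-null, 0 for p53-null against WT and 9 for p53/Brca1-null against WT. The last 2 counts were 22 and 50 without trend and 17 and 56 with a pseudocount of 0.1, and the last was 55 with quantile normalization. Leaving out 1 library gave 0 to 5 and 3 to 74, and 0 throughout between the null genotypes. The counts against WT without WT replicate 1 were 2 for p53-null and 20 for p53/Brca1-null. Genes near zero only in WT, only in p53-null and only in p53/Brca1-null numbered 277, 5 and 31 by medians, 12, 0 and 2 with the limits in every library, and 30, 0 and 6 with a high limit of 20 FPKM. With quantile normalization there were 86 (3 of the 6 genes), 11 and 20. A low limit of 0.5 FPKM gave 93 (4 of the 6 genes), 1 and 9. The high limit of 20 FPKM kept 4 of the 6 genes. Leaving out 1 library gave 115 to 285, 1 to 18 and 15 to 51, with 141 without WT replicate 1, 285 without WT replicate 2 and 240 without WT replicate 3. Quantile normalization moved the all-gene medians against WT from 0.58 to 0.01 for p53-null and from 0.41 to -0.01 for p53/Brca1-null. The causes were not tested. The WT count was the highest of the 3 in every setting.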
